A study of Homo sapiens with 12 samples.

Results

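The TAM receptor tyrosine kinases TYRO3, AXL and MERTK, their ligands GAS6 and PROS1 and the antisense transcript GAS6-AS1 were described across 4 groups of A375 RNA libraries. These 6 genes were chosen by symbol, for belonging to this ligand and receptor system and for a response to JQ1 that had been seen to differ between wild-type and knockout cells. They are 6 of the 56609 symbols in the count table, and 5 of them passed the filter on low counts. MERTK did not. The difference between genotypes in the JQ1 response was therefore the value that chose the genes, and it is given with its standard error and without a test. On the log2 scale the fitted difference was -1.58 for GAS6-AS1 and between -0.05 and 0.18 for the other 4 genes that were fitted, values that describe the choice and support nothing.

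A375 is an established human melanoma cell line. Cells were wild type (WT) or carried a CRISPR/Cas9 knockout of MAPKAPK2, which encodes the stress kinase MK2, and each genotype was given either DMSO as the vehicle or the BET bromodomain inhibitor JQ1 at 500 nM for 48 h. Each of the 4 groups had 3 replicate libraries of total RNA depleted of ribosomal RNA, 12 in all, and the study asked how loss of MAPKAPK2 alters resistance to BET inhibitors. The sample titles call the DMSO groups untreated. The labels do not say whether the knockout was 1 clone, whether wild-type cells had received a control guide, or whether replicates were separate cultures, so p-values measure the spread between these libraries, which may be technical.

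TAM receptors are activated when GAS6 or PROS1 bridges them to phosphatidylserine exposed on dying cells, vesicles or stressed cell surfaces. Both ligands need vitamin K-dependent carboxylation of their Gla domain for this lipid contact. GAS6 binds all the TAM receptors and PROS1 acts on TYRO3 and MERTK but not on AXL, and in melanoma high AXL marks a dedifferentiated, drug-tolerant state in which the melanocyte regulator MITF is usually low.

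In the GENCODE 29 annotation of GRCh38, GAS6 (ENSG00000183087.14) lies on the minus strand at chr13:113820549-113864067. GAS6-AS1 (ENSG00000233695.2) lies on the plus strand at chr13:113815630-113845744. Its first exon begins 4928 bases beyond the 3′ end of the GAS6 transcript used here, within the span of TMEM255B, and its gene then runs back through GAS6. Its longest basic transcript, with 5 exons and 7169 bases, meets the 15-exon transcript of GAS6, of 2490 bases, in 3 coding exons. These exons are shown because reads from the 2 genes can be separated there only by strand. They are written as the GAS6 strand reads, and capitals mark bases that also lie in a GAS6-AS1 exon on the opposite strand.
GAS6 exon 5, chr13:113839728-113839850, 123 of 123 bases shared: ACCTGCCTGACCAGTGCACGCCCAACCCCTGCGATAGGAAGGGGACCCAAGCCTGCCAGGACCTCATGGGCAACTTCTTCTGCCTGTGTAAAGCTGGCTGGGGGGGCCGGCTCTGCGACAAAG
GAS6 exon 6, chr13:113838069-113838191, 115 of 123 bases shared: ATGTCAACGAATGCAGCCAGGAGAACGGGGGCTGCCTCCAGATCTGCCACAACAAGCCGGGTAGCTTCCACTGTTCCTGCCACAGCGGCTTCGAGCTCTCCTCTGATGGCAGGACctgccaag
GAS6 exon 8, chr13:113834551-113834672, 95 of 122 bases shared: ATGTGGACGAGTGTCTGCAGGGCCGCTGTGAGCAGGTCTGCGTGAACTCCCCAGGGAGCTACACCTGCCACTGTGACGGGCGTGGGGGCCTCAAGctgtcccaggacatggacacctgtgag
The shared stretches add up to 333 bases, which are 13.4% of the GAS6 transcript and 4.64% of the GAS6-AS1 transcript. A further 6774 bases of GAS6-AS1, 94.5% of its transcript, lie within introns of GAS6. Libraries were made with a directional kit, but whether strand was used in counting is not given in the sources used here, so values of the 2 genes are uncertain to the extent that these bases, or unspliced GAS6 RNA, contributed.

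**Figure D1:**
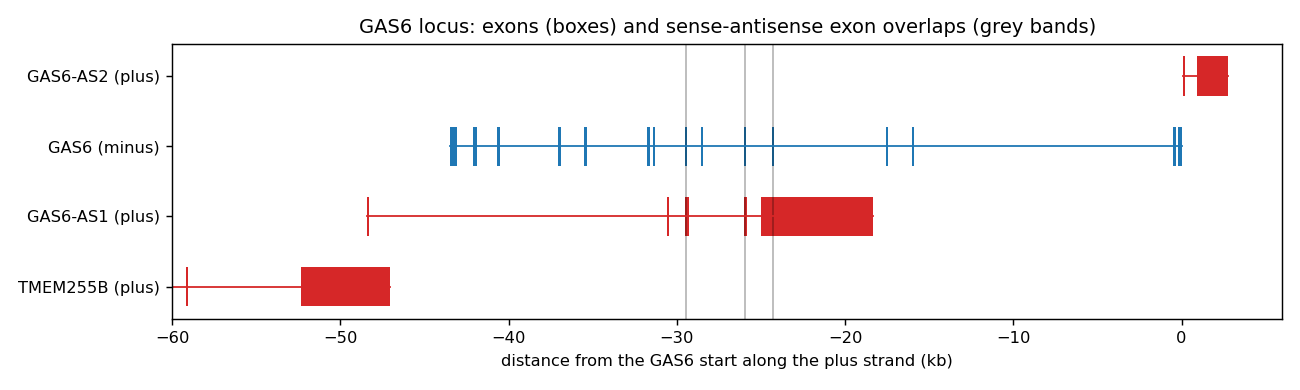
The GAS6 locus, with distance from the GAS6 start along the plus strand in kb on the horizontal axis and 1 row per gene. Boxes are exons of 1 transcript per gene, blue on the minus strand and red on the plus strand, and the grey bands are the 3 stretches, 333 bases in all, shared by exons of GAS6 and GAS6-AS1.

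Promoter sequence is shown for GAS6 and AXL, the ligand and receptor that rose under JQ1. Each is the 250 bases before a RefSeq start on GRCh38.p14, for AXL the upstream of its 2 listed starts, written along the strand of the gene, with capitals at each GC box, searched as GGGCGG on both strands.
GAS6, chr13:113864077-113864326, minus strand: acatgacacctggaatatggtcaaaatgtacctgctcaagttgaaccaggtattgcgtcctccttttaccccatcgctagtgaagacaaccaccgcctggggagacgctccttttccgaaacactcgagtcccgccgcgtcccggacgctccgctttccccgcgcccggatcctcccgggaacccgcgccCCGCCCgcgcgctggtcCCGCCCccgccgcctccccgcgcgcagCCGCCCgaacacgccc
AXL, chr19:41218973-41219222, plus strand: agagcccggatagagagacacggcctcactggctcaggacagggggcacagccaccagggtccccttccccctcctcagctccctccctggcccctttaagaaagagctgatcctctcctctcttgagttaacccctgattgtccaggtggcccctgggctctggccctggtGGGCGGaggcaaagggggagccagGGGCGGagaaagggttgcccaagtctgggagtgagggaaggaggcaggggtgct
GC boxes numbered 3 in the GAS6 window and 2 in the AXL window, and 42.6% of the 35116 RefSeq promoters of this length held at least 1. Neither window held the E box CACGTG (6.34% of promoters), the AP-1 motif TGANTCA (6.57%), the cyclic AMP response element TGACGTCA (1.65%) or TATAAA (10.7%). The windows were 66.8% and 64.4% G and C, against a median of 58% over all promoters. The window of the other AXL start, chr19:41226505-41226754, held 0 GC boxes and was 54.4% G and C. RefSeq promoters were matched for 5 of the 6 genes, without GAS6-AS1. GC boxes were not confined to the genes that rose. The window of PROS1, which fell, held 2 and was 57.6% G and C. For TYRO3, which also fell, the upstream window held 3 GC boxes and 1 AP-1 motif and was 80% G and C. The window of its other start held 0 GC boxes and was 58.8% G and C.

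Libraries held 25316899 to 34594295 estimated counts, and 21698 genes were tested. Levels are given as CPM, counts scaled to 1000000 per library after TMM adjustment. MAPKAPK2, the targeted gene, was at 89.6 ± 2.2 CPM (SD, n = 3) in WT DMSO, 117 ± 4.31 in WT JQ1, 12.4 ± 1.15 in knockout cells with DMSO and 14.4 ± 1.61 in those with JQ1, which matched the labels. Knockout JQ1 replicate 3 stood apart. Its counts differed from those of its group's other libraries by a chi-square per degree of freedom of 23.8 and 25.1, against 3.21 to 7.05 for all other replicate pairs, and the averaged effects are also given without it. Of 9 melanoma markers 7 averaged at least 1 CPM (SOX10, MITF, S100B, S100A1, PRAME, CSPG4 and MCAM), with MLANA and PMEL below, and the summed level was 1502 to 2646 CPM. Markers of other cell types summed to 4 to 7.17 CPM for keratinocytes or epithelium (2 of 7 at 1 CPM or more, KRT1 and CDH1 at 0), 10.1 to 19.9 CPM for macrophages or lymphoid cells (2 of 8, CD163 at 0) and 8.36 to 14.3 CPM for fibroblasts or endothelium (2 of 7). The macrophage list, mostly CD68, was at 17.5 to 19.9 CPM in WT DMSO, 15.1 to 17.9 in WT JQ1, 12.9 to 18.8 in knockout cells with DMSO and 10.1 to 11 in those with JQ1, and the fibroblast and endothelial list was at 12.5 to 14.3, 11.3 to 13.9, 10.6 to 11.8 and 8.36 to 10 CPM in the same order. Both were lowest in knockout cells with JQ1, and their part in the results below was not tested. LUM, a collagen-binding proteoglycan of the latter list, fell by 2.86 on the log2 scale with JQ1 (SE 0.18, edgeR adjusted p = 7.11e-09). PDGFRA of the same list went the other way and rose by 0.63 (SE 0.10, edgeR adjusted p = 7.39e-05). Its mean level went from 6.56 to 10.3 CPM in WT and from 4.63 to 7.1 CPM in knockout cells. Of 5 tested genes of this list 1 rose and 3 fell with JQ1, where 22.4% of all tested genes rose and 23.4% fell. In bulk RNA, fewer cells of a type and less RNA per cell cannot be told apart.

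The ligand GAS6 and its receptor AXL rose with JQ1, and the ligand PROS1, the receptor TYRO3 and the antisense GAS6-AS1 fell. These calls are for the JQ1 effect averaged over the 2 genotypes, with edgeR's quasi-likelihood test and Benjamini-Hochberg adjustment over all tested genes. In this balanced design the average is close to independent of the difference between genotypes that chose the genes. The independence is only approximate where groups differ in precision, as for GAS6-AS1, with 26 to 55 counts in knockout JQ1 libraries. All 5 tested genes passed, 2 higher and 3 lower, where 45.7% of all tested genes passed, 22.4% higher and 23.4% lower. The log2 fold changes ran from -1.89 to 0.96, beside a median of -0.02 over all tested genes. Without knockout JQ1 replicate 3 they were 0.68 for GAS6, -0.31 for PROS1, -2.02 for GAS6-AS1, 0.92 for AXL and -0.72 for TYRO3, and all 5 passed.

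GAS6, a secreted Gla-domain protein and the ligand with the highest affinity for AXL, was at 6.71, 7.68 and 6.43 CPM in the WT DMSO libraries and at 10.7, 13.2 and 11 CPM in the WT JQ1 libraries. In knockout cells it was at 6.8, 8.55 and 7.79 CPM with DMSO and at 11.7, 11.7 and 14.6 CPM with JQ1. Every JQ1 library was above every DMSO library in both genotypes, and the genotypes overlapped within each treatment. The average JQ1 effect was 0.73 on the log2 scale (SE 0.09), a 1.66-fold rise (edgeR adjusted p = 1.01e-05). It was 0.75 (SE 0.13) in WT and 0.72 (SE 0.13) in knockout cells. The average knockout effect was 0.14 (SE 0.09, edgeR adjusted p = 0.367) and did not pass.

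PROS1, protein S, is the other ligand and also a cofactor of anticoagulant activated protein C. In WT cells it was at 17, 14.9 and 16.1 CPM with DMSO and at 10.5, 13 and 11.9 CPM with JQ1. In knockout cells it was at 15.6, 13.3 and 12.4 CPM with DMSO and at 12.8, 11.5 and 10.2 CPM with JQ1. The WT groups did not overlap, while in knockout cells the lowest DMSO library lay below the highest JQ1 library. PROS1 fell by 0.35 on the log2 scale on average (SE 0.08, 1.28-fold, edgeR adjusted p = 0.00242), the smallest JQ1 effect of the 5 genes. Its values were -0.44 (SE 0.11) in WT and -0.26 (SE 0.12) in knockout cells, and its average knockout effect of -0.13 (SE 0.08, edgeR adjusted p = 0.369) did not pass. PROS2P, the PROS1 pseudogene, had 1 count in 1 library, so reads assigned to that copy were almost absent.

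**Figure D2:**
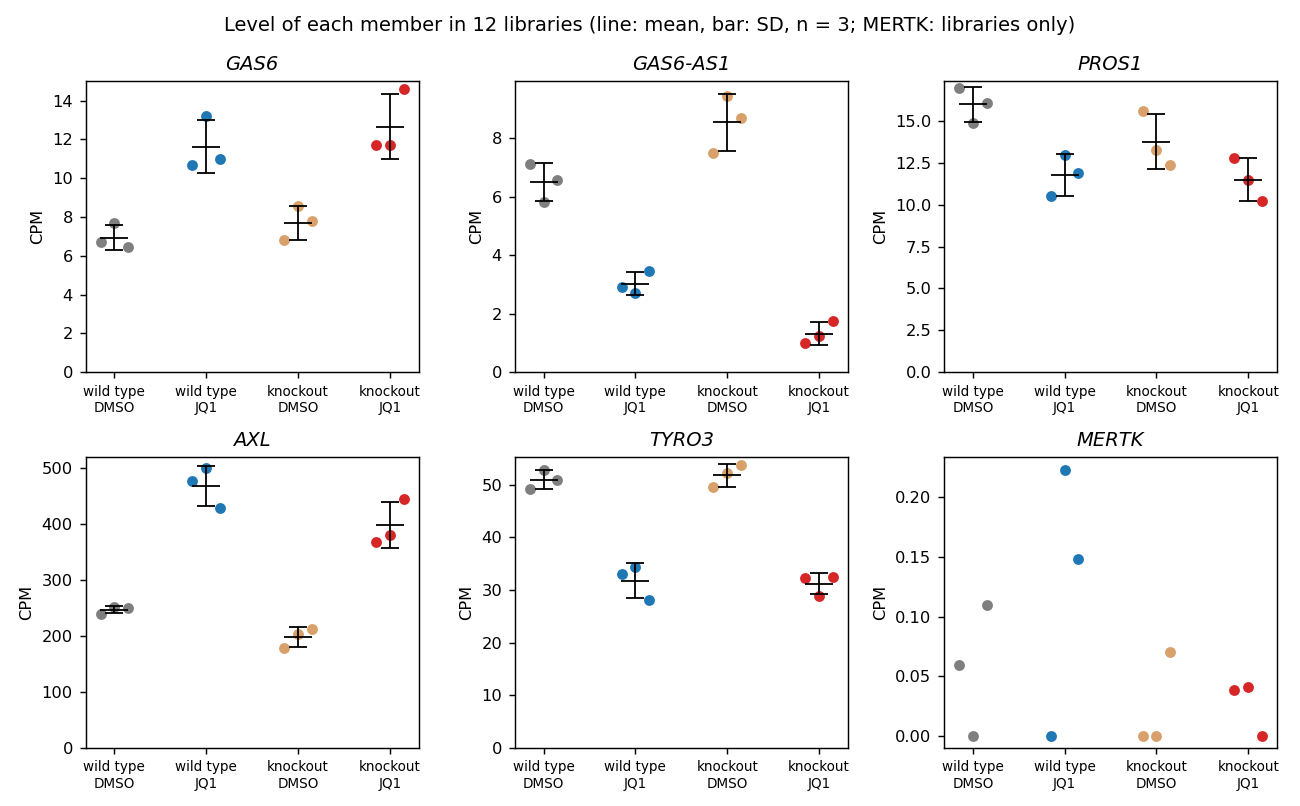
Level of each gene in CPM (vertical axis, linear) in the 4 groups. Points are the 12 libraries, lines are means and bars are SD (n = 3), drawn for all genes but MERTK. GAS6 and AXL points are higher with JQ1 and TYRO3 and GAS6-AS1 points are lower, and GAS6-AS1 has its highest group, knockout DMSO at 8.55 CPM, and its lowest, knockout JQ1 at 1.32 CPM, in the same genotype.

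GAS6-AS1, a long noncoding RNA, was the gene whose JQ1 response had been chosen for its difference between genotypes. It was at 7.12, 5.81 and 6.57 CPM in WT DMSO libraries and at 2.92, 2.71 and 3.46 CPM in WT JQ1 libraries. In knockout cells it was at 7.5, 9.44 and 8.71 CPM with DMSO and at 0.99, 1.22 and 1.74 CPM with JQ1, the latter from 26, 30 and 55 counts. All 4 groups were separate from each other, with knockout cells above WT cells in DMSO and below them under JQ1. Averaged over genotypes GAS6-AS1 fell by 1.89 on the log2 scale (SE 0.12, 3.7-fold, edgeR adjusted p = 1.35e-08).

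The values by genotype, which the choice of the gene used, were -1.10 (SE 0.16) in WT and -2.68 (SE 0.18) in knockout cells, folds of 2.14 and 6.39. Their difference was -1.58 (SE 0.25), and it was -1.86 without knockout JQ1 replicate 3, the library with the most GAS6-AS1 counts of its group. The knockout effect was 0.39 (SE 0.15) with DMSO and -1.19 (SE 0.20) with JQ1. Its average over treatments was -0.40 (SE 0.12, edgeR adjusted p = 0.0449), a mean of 2 opposite values that passed narrowly and was lost when any library other than wild-type DMSO replicate 2 or knockout JQ1 replicate 3 was left out, with adjusted p values up to 0.117.

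The corresponding differences between genotypes for the other genes, also without a test, were -0.03 (SE 0.18) for GAS6, 0.18 (SE 0.16) for PROS1, 0.08 (SE 0.11) for AXL and -0.05 (SE 0.11) for TYRO3.

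**Figure D3:**
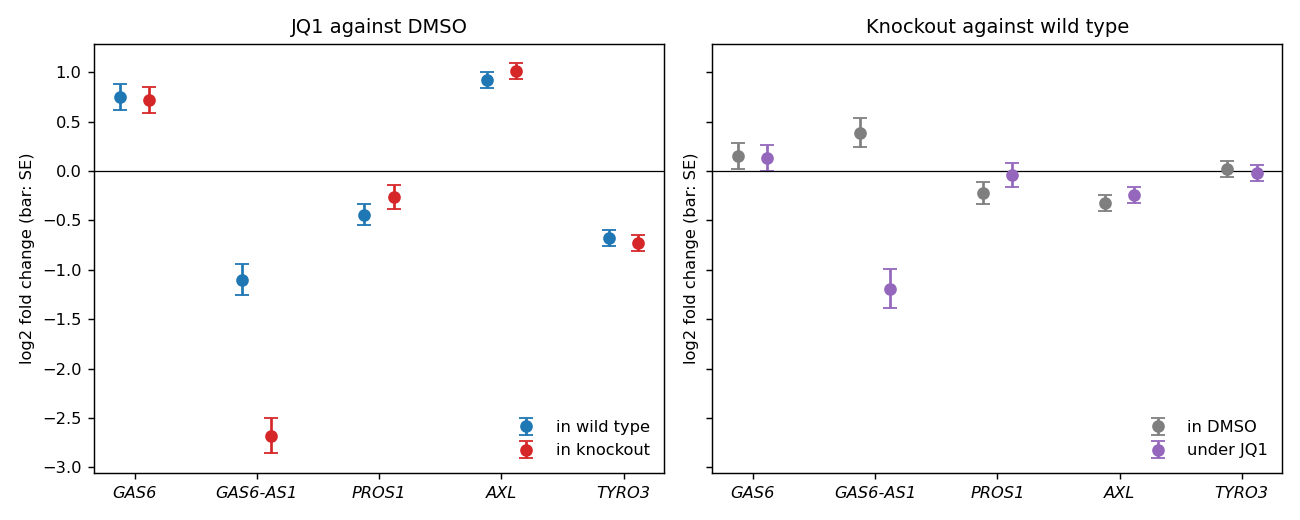
Log2 fold changes of the 5 tested genes, JQ1 against DMSO in WT and knockout cells (left) and knockout against WT in DMSO and under JQ1 (right). Points are fitted values and bars are SE. The points of the genotypes, or treatments, lie close together for GAS6, PROS1, AXL and TYRO3, and apart for GAS6-AS1, at -1.10 and -2.68 on the left and 0.39 and -1.19 on the right.

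Setting the antisense count over the sense count within each library removes scaling between libraries. The GAS6-AS1 to GAS6 ratio of counts was 1.06, 0.756 and 1.02 in WT DMSO libraries and 1.1, 1.1 and 1.12 in knockout DMSO libraries, so the 2 genes had near-equal counts without JQ1. With JQ1 it was 0.274, 0.205 and 0.315 in WT and 0.0847, 0.104 and 0.119 in knockout cells. Every JQ1 library was below every DMSO library, and the knockout JQ1 libraries were all below the WT JQ1 libraries. The mean log2 ratio changed with JQ1 by -2.65 on average (SE 0.14), with an exact two-sided permutation p of 0.005 within genotypes, the smallest that the 400 arrangements allow, and 0.01 after adjustment over the 2 ratio tests. This p follows from the separation of both genes between treatments, in opposite directions, described above. It adds no support of its own. The average knockout change of -0.56 (SE 0.14) did not pass (exact two-sided permutation p = 0.1, adjusted p = 0.1). It is a mean of 2 opposite values, 0.24 (SE 0.16) with DMSO and -1.36 (SE 0.23) with JQ1, which were not tested. As descriptions, the JQ1 change of the ratio was -1.85 (SE 0.24) in WT and -3.45 (SE 0.14) in knockout cells.

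The summed level of the sense and antisense genes moved less with JQ1 than either gene did. It was 13.4 ± 0.417 CPM in WT DMSO, 14.7 ± 1.17 in WT JQ1, 16.3 ± 1.86 in knockout cells with DMSO and 14 ± 2.05 in those with JQ1 (SD, n = 3). Its average JQ1 effect was -0.05 (SE 0.08, edgeR adjusted p = 0.684) and its average knockout effect 0.11 (SE 0.08, edgeR adjusted p = 0.458), and neither passed. The average JQ1 effect is a mean of 2 opposite values, as descriptions 0.12 (SE 0.11) in WT and -0.21 (SE 0.11) in knockout cells. The sum is of counts and not of counts per kb, and the GAS6-AS1 transcript has 7169 bases against 2490 for GAS6. It therefore does not show that the summed number of transcripts was unchanged. GAS6 and GAS6-AS1 moved in opposite directions under JQ1, and the average change of their summed counts did not pass. Whether assignment of reads between the 2 strands contributed was not tested.

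**Figure D4:**
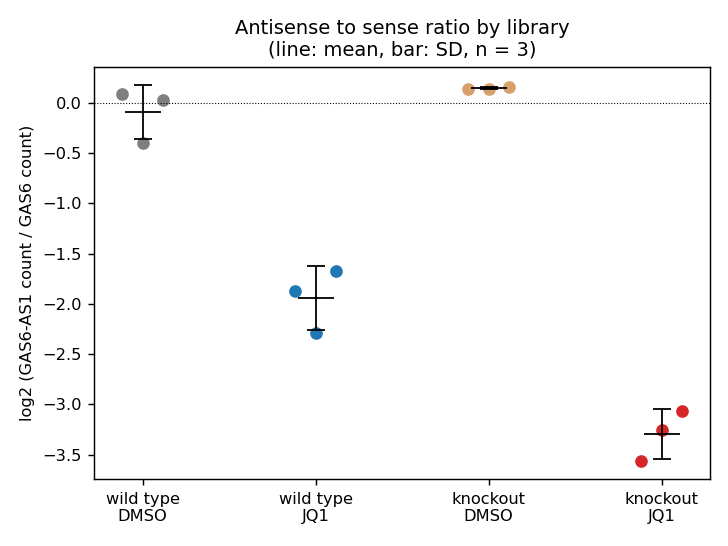
Log2 of the GAS6-AS1 count over the GAS6 count (vertical axis) in each of the 12 libraries. Lines are means and bars are SD (n = 3). Group means are -0.10 in WT DMSO, -1.94 in WT JQ1, 0.15 in knockout cells with DMSO and -3.30 in those with JQ1.

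The genes beside GAS6 were described next. Of 24 listed in band 13q34, 18 were tested, 6 rose and 2 fell with JQ1, with a median log2 fold change of 0.13, where 22.4% of all tested genes rose and 23.4% fell. TMEM255B, a membrane protein gene that overlaps the start of GAS6-AS1 on the same strand, where reads could be assigned to either gene, rose by 1.37 (SE 0.09, edgeR adjusted p = 1.14e-08), from 4.82 ± 0.657 to 12.6 ± 0.517 CPM in WT and from 5.38 ± 0.43 to 13.6 ± 1.82 CPM in knockout cells. CHAMP1, a chromosome alignment protein, rose by 0.34 (SE 0.05) and RASA3, a GTPase-activating protein, by 0.27 (SE 0.05). GAS6-AS2, whose annotated start lies 101 bases from that of GAS6 on the opposite strand, had 2 to 14 counts per library, and its JQ1 effect of 0.74 (SE 0.46, edgeR adjusted p = 0.215) did not pass. With knockout 1 of the 18 rose, TMCO3, by 0.25 (SE 0.04, edgeR adjusted p = 5.05e-04), and 1 fell, the phospholipid flippase ATP11A, by 0.21 on the log2 scale (SE 0.05, edgeR adjusted p = 0.0097).

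AXL (ENSG00000167601.11, chr19:41219203-41261766, plus strand) was the most abundant receptor. It was at 240, 252 and 250 CPM in WT DMSO libraries and at 477, 500 and 430 CPM in WT JQ1 libraries. In knockout cells it was at 179, 203 and 213 CPM with DMSO and at 368, 381 and 445 CPM with JQ1. JQ1 libraries were above DMSO libraries in both genotypes without overlap. Knockout libraries were all below WT libraries in DMSO, and under JQ1 the highest knockout library, replicate 3, overlapped WT.

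AXL rose with JQ1 by 0.96 on average (SE 0.06, 1.95-fold, edgeR adjusted p = 4.75e-09), with 0.92 (SE 0.08) in WT and 1.01 (SE 0.08) in knockout cells. It fell with knockout by 0.28 on the log2 scale on average (SE 0.06, 1.21-fold, edgeR adjusted p = 0.00337), with -0.32 (SE 0.08) in DMSO and -0.24 (SE 0.08) under JQ1. AXL and GAS6-AS1 were the 2 of the 5 genes called for knockout, both lower, where 14.8% of all tested genes were called, 6.48% higher and 8.27% lower. Without knockout JQ1 replicate 3 their knockout effects were -0.32 and -0.54, and both passed. The AXL call held in all 19 alternatives. The GAS6-AS1 call, a mean of 2 opposite values, was lost in 12 of 18.

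TYRO3 (ENSG00000092445.11, chr15:41557675-41583586, plus strand), a receptor best known from the nervous system, was at 49.2, 52.9 and 50.9 CPM in WT DMSO libraries and at 33, 34.3 and 28.1 CPM in WT JQ1 libraries. In knockout cells it was at 49.5, 52.3 and 53.8 CPM with DMSO and at 32.3, 28.9 and 32.5 CPM with JQ1. The treatments did not overlap, and the genotypes overlapped in both treatments. TYRO3 fell by 0.71 on the log2 scale with JQ1 on average (SE 0.06, 1.63-fold, edgeR adjusted p = 9.56e-08), with -0.68 (SE 0.08) in WT and -0.73 (SE 0.08) in knockout cells. Its average knockout effect was 0.00 (SE 0.06, edgeR adjusted p = 0.999). TYRO3P, a near-identical pseudogene, had 18 to 54 counts per library and a JQ1 effect of 0.00 (SE 0.22, edgeR adjusted p = 0.998).

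MERTK (ENSG00000153208.16, chr2:111898479-112029561, plus strand), the TAM receptor of macrophage efferocytosis, had 0 to 6 counts per library and 21 in all, with at least 1 count in 7 of the 12 libraries. A count of 3, the limit that a count of 0 allows, was worth 0.0825 to 0.122 CPM. MERTK was therefore under or near that limit in every group, and a JQ1 or knockout effect was not detectable at this depth. PROS1 (ENSG00000184500.15) lies at chr3:93873033-93980003 on the minus strand.

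The number of genes whose DMSO and JQ1 libraries did not overlap was 5 of 5 in WT, where 50.4% of all tested genes did not overlap, and 4 of 5 in knockout cells, where 42.3% did not. Knockout and WT libraries did not overlap for 2 genes in DMSO (29.6% of all tested genes) and for 1 under JQ1 (23.1%). These contrasts include the values used to choose the genes, and the shares are a description.

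Levels of different genes were compared as CPM per kb of the longest annotated transcript. In WT DMSO libraries AXL was at 52.3 ± 1.38, TYRO3 at 6.22 ± 0.227, PROS1 at 4.47 ± 0.301, GAS6 at 2.79 ± 0.264 and GAS6-AS1 at 0.907 ± 0.0922 CPM per kb (SD, n = 3), and each step in this order was wider than the SDs of its neighbours. In knockout DMSO libraries the order was the same, with AXL at 41.8 ± 3.65, TYRO3 at 6.32 ± 0.267, PROS1 at 3.84 ± 0.463, GAS6 at 3.1 ± 0.353 and GAS6-AS1 at 1.19 ± 0.137, and PROS1 and GAS6 differed by less than their summed SDs.

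Under JQ1 the order changed, with GAS6 above TYRO3 and PROS1. In WT JQ1 libraries AXL was at 99 ± 7.52, GAS6 at 4.67 ± 0.553, TYRO3 at 3.88 ± 0.4, PROS1 at 3.29 ± 0.355 and GAS6-AS1 at 0.423 ± 0.0541 CPM per kb. GAS6 and TYRO3, and TYRO3 and PROS1, differed there by less than their summed SDs. In knockout JQ1 libraries AXL was at 84 ± 8.64, GAS6 at 5.08 ± 0.674, TYRO3 at 3.81 ± 0.245, PROS1 at 3.21 ± 0.358 and GAS6-AS1 at 0.184 ± 0.0537, and TYRO3 and PROS1 differed by about their summed SDs. The order of GAS6 and TYRO3 depends on the transcript length used, since TYRO3 was divided by 8207 bases and GAS6 by 2490.

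The balance of receptors and of ligands shifted with JQ1 in both genotypes. The ratio of AXL to TYRO3 per kb was 8.41 ± 0.138 in WT DMSO and 25.6 ± 0.81 in WT JQ1 libraries, and 6.61 ± 0.305 and 22.1 ± 2.06 in knockout cells. AXL made up 89.3 ± 0.137% of the summed per-kb level of the 3 receptors in WT DMSO, 96.2 ± 0.104% in WT JQ1, 86.8 ± 0.525% in knockout cells with DMSO and 95.6 ± 0.411% in those with JQ1. The ratio of PROS1 to GAS6 per kb was 1.62 ± 0.235 in WT DMSO and 0.706 ± 0.0387 in WT JQ1, and 1.26 ± 0.29 and 0.644 ± 0.141 in knockout cells, so that PROS1 exceeded GAS6 on average in DMSO and GAS6 exceeded PROS1 on average under JQ1. The ratio of AXL to GAS6 per kb changed less, at 18.8 ± 1.6 and 21.3 ± 1.9 in WT and 13.6 ± 0.974 and 16.6 ± 0.56 in knockout cells.

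The genes most alike in pattern to each member were found by the root mean square difference of log2 CPM over the 12 libraries, after centring each gene on its own mean. For AXL, SLC1A4 (0.08), a neutral amino acid transporter, was among them. For TYRO3 they were FAM84B (0.07) and ACOT2 (0.07), a mitochondrial acyl-CoA thioesterase. For GAS6 they were QSOX1 (0.09), a sulfhydryl oxidase, and TECR (0.10), a fatty acid elongation enzyme. No gene came as near to GAS6-AS1, whose nearest were the decoy receptor gene TNFRSF10C (0.25) and the microfibril gene MFAP2 (0.26). MFAP2 was at 27, 10.4, 26.4 and 4.12 CPM in WT DMSO, WT JQ1, knockout DMSO and knockout JQ1 libraries, and TNFRSF10C at 5.58, 1.88, 5.47 and 0.889 CPM. PROS1 varied by less than 0.5 between group means and was not searched.

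The rest of the ligand and receptor pathway was read from gene lists, with the same fit and adjustment. Genes listed for vitamin K-dependent carboxylation rose or stayed below the threshold. Of 7 such genes, all tested, 5 rose with JQ1 and 0 fell, with a median log2 fold change of 0.37 against -0.02 over all genes. The list also holds a regulator and genes outside the vitamin K cycle, so its counts give no direction for carboxylation itself. Over all tested genes 22.4% rose and 23.4% fell with JQ1, and 6.48% rose and 8.27% fell with knockout, and the counts of each list below stand beside these shares. NQO1, a quinone reductase, rose by 0.52 (SE 0.04, edgeR adjusted p = 2.12e-08). VKORC1, the vitamin K epoxide reductase, rose by 0.37 (SE 0.04) with JQ1 and by 0.28 (SE 0.04) with knockout. CALU, a regulator of the carboxylase, rose by 0.45 (SE 0.04) with JQ1, and GGCX, the carboxylase itself, rose by 0.27 (SE 0.05, edgeR adjusted p = 0.00113) with knockout, where 2 of 7 rose and 0 fell.

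Of 12 other Gla-domain proteins 6 were tested, 1 rose and 2 fell with JQ1 (median 0.10), and 0 rose and 2 fell with knockout (median -0.08). MGP, the matrix Gla protein that inhibits calcification, fell by 0.42 on the log2 scale with JQ1 (SE 0.11) and by 0.73 with knockout (SE 0.11). PRRG4, a transmembrane Gla protein, fell by 0.72 with JQ1 (SE 0.11, edgeR adjusted p = 9.45e-05) and by 0.42 with knockout (SE 0.11, edgeR adjusted p = 0.022), the latter lost in 5 of 19 alternatives. Of 3 other TAM ligands 2 were tested. LGALS3, galectin-3, reported as a MERTK ligand, rose by 0.53 (SE 0.06, edgeR adjusted p = 1.71e-06) with JQ1 and TUB, the tubby protein, fell by 0.64 on the log2 scale (SE 0.08, edgeR adjusted p = 1.52e-05), and with knockout neither passed.

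Genes of receptor shedding and turnover were mixed. Of 11, all tested, 5 rose and 2 fell with JQ1 (median 0.06), and 1 rose and 2 fell with knockout (median -0.05). ADAM10 and ADAM17, the proteases that cleave AXL and MERTK from the surface, were at -0.12 (edgeR adjusted p = 0.193) and -0.02 (edgeR adjusted p = 0.758) with JQ1 and did not pass. TIMP3, an inhibitor of such proteases, was at 1042 ± 20.4 CPM in WT DMSO, 530 ± 21.4 in WT JQ1, 772 ± 56.6 in knockout cells with DMSO and 433 ± 36.3 in those with JQ1. It fell by 0.91 on the log2 scale with JQ1 (SE 0.05, edgeR adjusted p = 9.89e-10) and by 0.36 with knockout (SE 0.05, edgeR adjusted p = 6.13e-05). The ubiquitin ligase STUB1 rose by 0.60 (SE 0.06), and SOCS1, a cytokine signalling suppressor, rose by 2.01 (SE 0.27) at mean levels below 1 CPM in every group. With knockout the ubiquitin ligase CBLB fell by 0.25 on the log2 scale (SE 0.05) and SOCS3 rose by 0.30 (SE 0.07).

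Adaptors and effectors below the receptors showed no common direction, with 9 of 27 tested genes higher and 8 lower with JQ1 (median 0.02, 28 listed), where 22.4% and 23.4% of all tested genes were called, and 4 higher and 3 lower with knockout (median -0.01), where 6.48% and 8.27% were. ELMO1, part of the engulfment module that activates RAC, fell by 0.85 on the log2 scale with JQ1 (SE 0.04, edgeR adjusted p = 6.44e-10) and by 0.19 with knockout (SE 0.04). VAV3, a RAC exchange factor, was at 3.57 ± 0.451 CPM in WT DMSO, 0.972 ± 0.261 in WT JQ1, 12.7 ± 1.47 in knockout cells with DMSO and 0.837 ± 0.246 in those with JQ1. It fell by 2.89 on the log2 scale with JQ1 (SE 0.15, edgeR adjusted p = 8.28e-10) and rose by 0.80 with knockout averaged over treatments (SE 0.15, edgeR adjusted p = 0.00225). The rise was seen with DMSO only, and under JQ1 the knockout mean was slightly below the WT mean. PIK3R1, a regulatory subunit of PI 3-kinase, rose by 0.62 with JQ1 (SE 0.05), and SRC fell by 0.34 on the log2 scale with knockout (SE 0.07).

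Genes that expose phosphatidylserine or keep it inside had 2 higher and 2 lower of 13 tested with JQ1 (14 listed, median -0.19) and 0 higher and 2 lower with knockout (median -0.10). XKR6, a relative of the scramblase XKR8, rose by 0.55 with JQ1 (SE 0.11). TMEM30A, the flippase chaperone, rose by 0.22 (SE 0.06, edgeR adjusted p = 0.00407), and this call was lost with scaling to library totals alone (edgeR adjusted p = 0.182). With knockout the flippase ATP8A2 fell by 0.61 on the log2 scale (SE 0.12).

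Other receptors and bridging proteins for phosphatidylserine had a median of 0.50 with JQ1, with 7 of 10 tested genes higher and 3 lower (14 listed), and a median of -0.05 with knockout, with 3 higher and 1 lower. THBS1, thrombospondin 1, was at 415 ± 7.64 CPM in WT DMSO and 761 ± 30.5 in WT JQ1, and at 241 ± 14.7 and 534 ± 11.4 CPM in knockout cells. It rose by 1.01 with JQ1 (SE 0.04, edgeR adjusted p = 3.51e-11) and fell by 0.65 on the log2 scale with knockout (SE 0.04, edgeR adjusted p = 1.72e-08), the same pair of directions as AXL. ITGB3, integrin beta 3, rose by 1.02 (SE 0.04), and EDIL3, a secreted bridge between phosphatidylserine and integrins, rose by 1.08 (SE 0.07) with JQ1. CALR, calreticulin, rose by 0.17 with knockout (SE 0.03), and the knockout effect of ITGB3, 0.15 (SE 0.04, edgeR adjusted p = 0.0334), was lost in 6 of 19 alternatives.

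Melanoma state genes that are often reported with or against AXL had 8 higher and 6 lower of 18 tested with JQ1 (21 listed, median 0.06), and 1 higher and 8 lower with knockout (median -0.22, against -0.00 over all genes), where 6.48% of all tested genes were higher and 8.27% lower. CTGF, a YAP target, was at 12.5 ± 0.301 CPM in WT DMSO and 34.8 ± 1.93 in WT JQ1 and rose by 1.40 (SE 0.07, edgeR adjusted p = 6.53e-10), JUN rose by 1.31 (SE 0.11) and PDGFRB, a receptor tyrosine kinase, fell by 1.62 on the log2 scale (SE 0.10, edgeR adjusted p = 8.85e-09). MITF, usually opposite to AXL, was at -0.03 with JQ1 (edgeR adjusted p = 0.735) and did not pass, and it fell by 0.47 on the log2 scale with knockout (SE 0.06, edgeR adjusted p = 3.84e-05), where AXL fell too. NGFR, a neural crest marker, fell by 1.79 (SE 0.12) and WNT5A by 0.56 (SE 0.04) on the log2 scale with knockout.

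**Figure D5:**
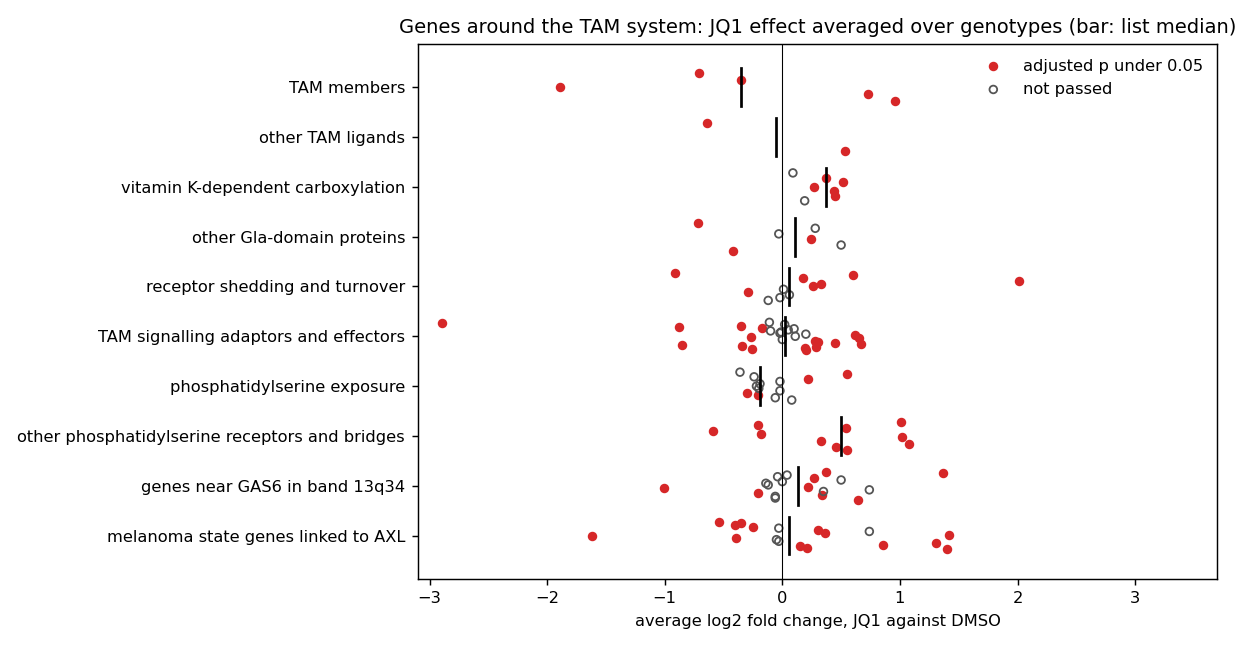
Average log2 fold change, JQ1 against DMSO (horizontal axis), of each tested gene in 10 lists around the TAM system. Each point is a gene, filled where the edgeR adjusted p passed the threshold of 0.05 and open where it did not, and the vertical bar is the list median. The medians run from -0.35 for the TAM genes to 0.50 for other phosphatidylserine receptors and bridges.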

How the data were processed

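Gene-level estimated counts of 12 rRNA-depleted libraries were deposited by the authors, together with a table of normalized signal. The submitters' processing notes name Trim Galore, cutadapt, FastQC, MultiQC, kallisto and DESeq2 and the build GRCh38.p10. The annotation release and strand setting are not given in the sources used here. In the normalized signal that the authors deposited, counts were divided by factors specific to gene and library (library medians 0.817 to 1.22), and it served only as an alternative scaling. Estimated counts were rounded. Genes were filtered with filterByExpr and scaled by TMM, and 21698 genes were fitted over all 12 libraries, with 1 term per group and no covariate, by edgeR 4.0.16 quasi-likelihood tests (limma 3.58.1, R 4.3.3) with Benjamini-Hochberg adjustment and a threshold of 0.05. Tested genes held at least 99.9% of each library's counts. The JQ1 effect averaged over genotypes and the knockout effect averaged over treatments were tested. Effects within a genotype or treatment are fitted values with SE. DESeq2 1.42.0 was an alternative, with other scalings, no low-count filter, a replicate block, libraries left out and overlapping genes summed. The tests were run on simulated counts first. Levels per kb used the longest basic transcript of GENCODE 29, and sequences came from the GENCODE 29 genome and RefSeq. The members and the gene lists were chosen with earlier results of these data known. Named genes were the members, MAPKAPK2, pseudogenes where counted, up to 3 genes per list and averaged contrast with the smallest adjusted p past 0.05, and the 2 genes nearest in pattern to each member. ADAM10, ADAM17, MLANA, PMEL and GAS6-AS2 were also named, as was the JQ1 value of MITF, after their values were seen. Some genes that this rule names are not reported here.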

Additional observations from a re-analysis of the deposited data

Results flagged for a closer look

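The GAS6-AS1 level moved in opposite directions with knockout in the 2 treatments. The log2 fold change of knockout against wild type was 0.39 (SE 0.15) with DMSO, where all 3 knockout libraries were above all 3 wild-type libraries, and -1.19 (SE 0.20) with JQ1, where all 3 were below. The difference between the treatments was not tested, because it is the contrast by which the gene was chosen.

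VAV3 stood out among the pathway genes for a JQ1 response that differed between genotypes. The response was -1.87 (SE 0.21) in wild-type and -3.92 (SE 0.21) in knockout cells. The difference was -2.06 (SE 0.31), with a range of -2.43 to -1.83 over the alternatives. It is given without a test, because VAV3 was singled out by this value. The gene list that holds VAV3 was also chosen with earlier results of these data known.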

How the results depend on the processing

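The number of genes called for the average JQ1 effect was 9159 to 10409 and for the average knockout effect 2547 to 3922 over 19 alternatives each. With scaling to library totals alone, 30.6% of the JQ1 calls were higher (3186 against 7223 lower) in place of 48.9%, with the median of all genes at -0.145 in place of -0.0235, and 30.2% of the knockout calls (940 against 2172) in place of 43.9%. The JQ1 calls of GAS6-AS1 (-2.02 to -1.80), PROS1 (-0.47 to -0.30), AXL (0.84 to 1.00) and TYRO3 (-0.83 to -0.66), and the knockout call of AXL (-0.32 to -0.24), held in all. GAS6 was at -0.05 when its counts were summed with those of GAS6-AS1, by construction. The ratio of GAS6-AS1 to GAS6 changed by -2.72 to -2.53 with JQ1 (exact permutation p 0.005 to 0.0312) and by -0.64 to -0.49 with knockout (p 0.095 to 0.25). The knockout effect of TYRO3 was -0.04 with library totals, -0.00 without the low-count filter and -0.04 to 0.03 with libraries left out, and never passed. The knockout call of GAS6-AS1 (-0.54 to -0.31) was lost in 12 of 18 alternatives, with edgeR adjusted p of 0.0576 with the authors' factors, 0.0508 with a replicate block, 0.0949, 0.051 and 0.0781 without knockout DMSO replicate 1, 2 or 3, 0.115 and 0.0966 without knockout JQ1 replicate 1 or 2, 0.107 and 0.0851 without wild-type DMSO replicate 1 or 3, and 0.0688, 0.05002 and 0.117 without wild-type JQ1 replicate 1, 2 or 3. The causes were not tested. List counts of genes lower with JQ1 were 6 to 12 for adaptors and effectors, 2 to 7 for band 13q34 and 1 to 6 for phosphatidylserine exposure.

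Replicate numbers did not pair the libraries: in 0 of 18 same-numbered pairs was the correlation of deviations over 0.1 (-0.115 to 0.0786), and 1 of 12 libraries correlated best with its own number. With the replicate block the average JQ1 effect called 9615 genes (4720 higher, 4895 lower) and the average knockout effect 2878 (1227 higher, 1651 lower), and the ratio changes of -2.65 and -0.56 had sign-flip permutation p of 0.0312 and 0.25. Depth limits MERTK, GAS6-AS2 and SOCS1, and GAS6-AS1 in the knockout JQ1 libraries.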
